A study of Mus musculus with 8 samples.

Results

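Transcript levels of 31 genes of the pyruvate dehydrogenase complex, its kinases and phosphatases, the citrate cycle, the malic enzymes and pyruvate carboxylase were followed through 4 stages of mouse spermatogenesis. The genes were a listed set, and every probe set annotated to 1 of them and to no other gene was taken. All 31 genes had a probe set, out of 18193 genes on the array, and they were covered by 72 probe sets, of which 63 passed a filter on low signal. The 4 groups were type A and type B spermatogonia, the mitotic cells that precede meiosis; pachytene spermatocytes, which are in meiotic prophase; and round spermatids, which are haploid. Each group was measured on 2 Mouse 430 2.0 arrays from separate germ cell preparations, with total RNA of mice labelled BL/6-129, and no treatment, allele or age is given in the labels. The sources used here give neither the method of cell isolation nor the purity reached.

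Pyruvate dehydrogenase is the mitochondrial complex that turns pyruvate into acetyl-CoA, the fuel of the citrate cycle. Its E1 enzyme is built of alpha and beta subunits, kinases switch E1 off by phosphorylation and phosphatases switch it on again. The alpha subunit has a gene on the X chromosome, Pdha1, and an autosomal retrogene used in the testis, Pdha2. Spermatogonia rely largely on sugar, while spermatocytes and round spermatids take up lactate made by Sertoli cells and convert it to pyruvate. The X and Y chromosomes are silenced in pachytene cells.

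Signal intensities were analysed as log2(signal + 16). In what follows, ± is the standard error of the log2 change in a limma fit over all 8 arrays, with 2 arrays against 2, and adjusted p-values are limma's with Benjamini-Hochberg adjustment over 14155 genes. A gene was called at an adjusted p under 0.05. Where a gene had several probe sets, the one with the highest mean signal was used. Signals of different genes come from different probes and are not compared with each other.

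The pair of E1 alpha genes stands at the centre of the results, and the sequence before each annotated start is shown because these genes moved in opposite directions. Mdh1b, a relative of Mdh1 that also rose, is shown with them. The stretches are the 250 bases before the start in RefSeq annotation of GRCm38.p6, written 5′ to 3′ on the strand of the gene, which is the minus strand for all 3, with each CG dinucleotide in capitals. They lie at chrX:160138431-160138680 for Pdha1, chr3:141212356-141212605 for Pdha2 and chr1:63730319-63730568 for Mdh1b.
Pdha1: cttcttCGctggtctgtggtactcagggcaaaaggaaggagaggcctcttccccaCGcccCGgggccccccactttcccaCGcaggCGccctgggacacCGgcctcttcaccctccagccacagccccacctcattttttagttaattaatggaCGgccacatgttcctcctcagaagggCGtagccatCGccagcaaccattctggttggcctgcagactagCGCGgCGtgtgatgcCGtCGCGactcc
Pdha2: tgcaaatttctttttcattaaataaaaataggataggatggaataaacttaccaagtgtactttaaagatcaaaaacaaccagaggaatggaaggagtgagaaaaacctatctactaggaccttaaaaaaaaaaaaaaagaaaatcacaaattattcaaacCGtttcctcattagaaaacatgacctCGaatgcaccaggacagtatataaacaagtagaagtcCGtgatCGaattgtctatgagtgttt
Mdh1b: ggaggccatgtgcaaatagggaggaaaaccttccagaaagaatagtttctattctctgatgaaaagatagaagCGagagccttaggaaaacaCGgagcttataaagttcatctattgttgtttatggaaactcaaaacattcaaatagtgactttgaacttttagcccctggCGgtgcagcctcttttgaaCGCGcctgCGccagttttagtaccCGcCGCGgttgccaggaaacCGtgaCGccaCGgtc

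The stretch before Pdha1 held 15 CG dinucleotides, that before Mdh1b 12 and that before Pdha2 4. In the window that also takes in 50 bases after the start, 300 bases in all, the counts were 21, 14 and 4, against a median of 7 over 32851 windows of that length. Fewer CG than in the Pdha1 window were present in 75.2% of windows, fewer than in the Mdh1b window in 63.7%, and fewer than in the Pdha2 window in 31.4%. Both strands were searched for 4 short motifs: the full cAMP response element TGACGTCA, which is present in 1.79% of all windows, its front part TGACG, which overlaps it and is present in 20.8%, the GC box GGGCGG in 35.7% and the CAAT box CCAAT in 37.4%. The short form TGACG was found 1 time in the Pdha1 window and 1 time in the Mdh1b window, which held none of the other motifs, and the Pdha2 window held none of the 4. Windows were given for 28 of the 31 genes.

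The arrays were checked against markers of the labelled cells. The summed signal of 10 spermatogonial markers was 5395 to 8131 in spermatogonia and 802 to 1447 at the later stages, and that of 10 spermatid markers was 34623 and 39479 in round spermatids, 3337.5 and 3554 in pachytene cells and 190 to 202 in type A and type B replicate 1. Type B replicate 2 stood apart from replicate 1: 10 markers of pachytene spermatocytes summed to 8486 there and to 2398 in replicate 1, against 1469 to 1762 in type A, 17450 and 17611 in pachytene cells and 20209 and 19859 in spermatids. That list therefore marks both later stages, and the spermatid markers also stood out in type B replicate 2, at 2100 against 190 in replicate 1. Of the pachytene sum of 8486, Ldhc gave 4896 and Hspa2 1809. Sycp1 and Tesk2 of that list read lower in type B replicate 2 than in replicate 1, at 232 against 1274 and 136.5 against 177. The others read higher. The type B arrays correlated at r = 0.886 across genes and the other replicate pairs at 0.962 to 0.981, where genes are not independent replicates. Somatic markers were also present. The 10 peritubular and stromal markers summed to 11941 and 15571 in type A, 17272 and 18324 in type B, 884 and 1188 in pachytene cells and 1232 and 1362 in spermatids, and 9 of them fell from type A to pachytene. The 12 measured Sertoli cell markers summed to 8277 and 11935 in type A, 6057 and 8631 in type B, 4247 and 5908 in pachytene cells and 974 and 1113 in spermatids, with 8 lower in pachytene cells than in type A and 8 lower in spermatids than in pachytene cells. No marker of these lists was listed at 0 on any array. Leydig cell markers (6 measured) summed to 641 to 1895 on the arrays before the spermatid stage and 183 and 190 in spermatids, and 10 macrophage markers to 712 to 1380 in spermatogonia and 292 to 618 later. The part of these somatic cells in the falls reported here was not tested. The 3′ probe set for 18S ribosomal RNA read 2658 to 3450.5 in spermatogonia and 120.1 to 276 at both later stages, so a difference in labelling between these arrays cannot be told apart from stage. In these bulk samples, fewer cells of a type and less RNA per cell cannot be told apart either.

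Between spermatogonia and pachytene spermatocytes the set split into genes that rose and genes that fell. Of 31 members, 12 were higher and 14 lower in pachytene cells than in type A spermatogonia, and 5 did not pass. Over all genes tested, 27.2% were higher and 35.6% lower. The median log2 change of the members was -0.49, against -0.14 for all genes. The counts against type B spermatogonia were also 12 higher and 14 lower, with 25.5% of all genes higher and 32.7% lower, and a median of -0.64 against -0.07. When arrays were centred on their 75th percentile, which moved the median of all genes from -0.14 to 0.20 against type A, the genes called went from 3855 higher and 5042 lower to 5110 and 3808, while the members stood at 12 and 13. Both comparisons share the pachytene arrays. The stromal, Sertoli, Leydig and macrophage sums given above also read lower in pachytene cells than in type A.

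**Figure D1:**
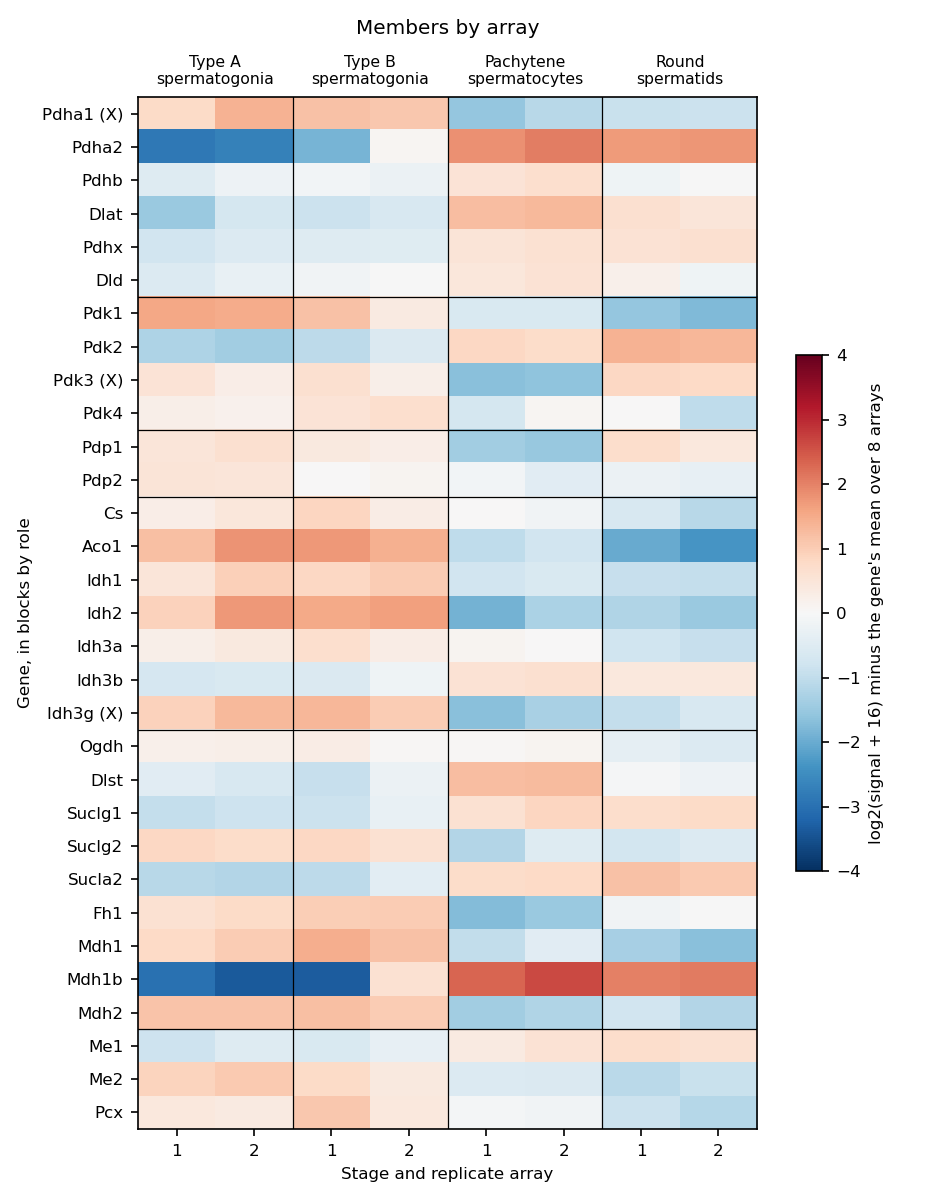
Level of each of the 31 genes (rows, in blocks by role, X-linked genes marked) on each of the 8 arrays (columns, by stage and replicate). Colour is log2(signal + 16) minus the gene's mean over the 8 arrays, and Pdha2 and Mdh1b are low in type A and highest in pachytene cells.

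Among subunits of the pyruvate dehydrogenase complex, 5 of 6 rose from type A to pachytene and 1 fell, against 27.2% and 35.6% of all genes. The gene that fell was Pdha1, the X-linked E1 alpha subunit. Its signal was 286 and 450.5 in type A, 388 and 358 in type B, 45.6 and 67.2 in pachytene cells and 80.7 and 81.4 in spermatids. All 4 spermatogonial arrays lay above all 4 later arrays. Pdha1 fell by 2.39 ± 0.26 against type A (adjusted p = 0.00017), and the change from pachytene cells to spermatids was 0.44 ± 0.26 (adjusted p = 0.233). Its second probe set was also lower in pachytene cells, at 5.6 and 15.8 against 119 to 219 in spermatogonia, and it rose to 55.7 and 32.5 in spermatids, by 1.17 ± 0.33 (adjusted p = 0.03 in the fit of all probe sets).

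Pdha2, the retrogene for the same subunit, ran in the other direction. Its signal was 65.5 and 74.9 in type A, 147 and 608 in type B, 2095 and 2446 in pachytene cells and 1891.5 and 1978 in spermatids. The type B arrays differed from each other by more than the arrays of any other stage, and type B replicate 2 was the array with raised pachytene and spermatid markers. Pdha2 rose by 4.73 ± 0.52 log2 from type A to pachytene (adjusted p = 1.77e-04) and by 2.84 ± 0.52 from type B (adjusted p = 0.00216). Leaving out type B replicate 1 made the second rise 1.87 (adjusted p = 3.29e-04). From pachytene cells to spermatids the change was -0.23 ± 0.52 and did not pass (adjusted p = 0.786). The increase from type A to type B was 1.89 ± 0.52 and did not pass (adjusted p = 0.487), while on type B replicate 2 alone it was 2.86 (adjusted p = 9.15e-05).

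Unequal change of the E1 alpha genes was tested on the log2 ratio of Pdha2 to Pdha1 within each array, as part of 7 pairs of related enzymes. Relative to type A, the ratio shifted by 1.84 log2 in type B and by 7.12 in pachytene cells, and it shifted by -0.66 from pachytene cells to spermatids. An exact permutation test, in which the 8 arrays were regrouped into pairs in every possible way, gave p = 0.00952, the smallest it can give, and 0.0167 adjusted over the 7 pairs. The order of the stages was type A, type B, then the later stages, and the type B arrays lay between type A and the later arrays.

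The beta subunit of E1, Pdhb, had a signal of 854 and 1064 in type A and 1772 and 1934 in pachytene cells, and rose by 0.95 ± 0.20 (adjusted p = 0.00337). After quantile normalization this rise was 0.57 (adjusted p = 0.0297). In spermatids Pdhb read 1086 and 1200.5, below both pachytene arrays and next to type B at 1126.5 and 1038. Dlat, the E2 core that transfers the acetyl group, had 143 and 256 in type A, 226.5 and 265 in type B, 1024 and 1071 in pachytene cells and 674 and 599 in spermatids. It rose by 2.35 ± 0.27 against type A (adjusted p = 2.07e-04). The Dlat probe set is of a design that can match other transcripts, and the next brightest, not of that design, ran from 117 and 191 in type A to 1088 and 1064 in pachytene cells. In spermatids the brightest Dlat probe set changed by -0.71 ± 0.27 without passing (adjusted p = 0.0759), and the other 2 fell, by 1.05 ± 0.25 and 1.82 ± 0.29 (adjusted p = 0.0152 and 0.0023 in the fit of all probe sets).

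Pdhx, which tethers the E3 enzyme to the core, rose by 1.21 ± 0.18 (adjusted p = 6.83e-04), from 175 and 205 in type A and 209 and 214 in type B to 444 and 471 in pachytene cells. In spermatids it read 462 and 486. Dld, the E3 enzyme shared with the oxoglutarate dehydrogenase complex, rose by 0.94 ± 0.21 against type A (adjusted p = 0.00524), and by 0.60 ± 0.21 against type B (adjusted p = 0.0416). The second call was lost when any type B or pachytene array was left out (adjusted p = 0.0513 to 0.17). The subunits other than Pdha1 were thus higher in pachytene cells than in type A, as were 27.2% of all genes tested.

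**Figure D2:**
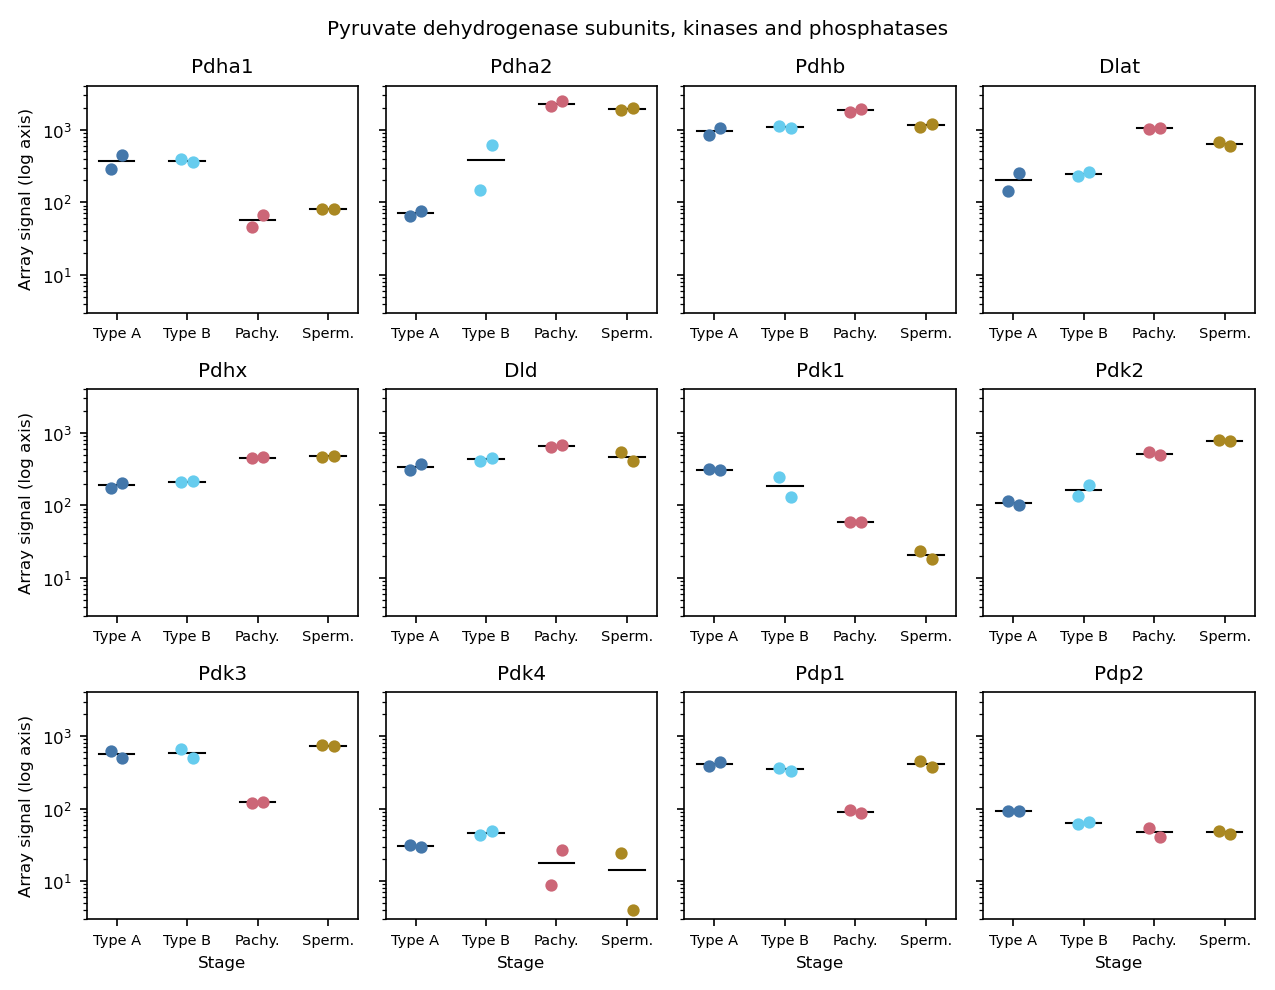
Array signal (log axis) of the 6 pyruvate dehydrogenase subunits, 4 kinases and 2 phosphatases at each of the 4 stages. Points are single arrays, 2 per stage, and lines are their mean; Pdha1 and Pdha2 run in opposite directions, and Pdk3 and Pdp1 are low in pachytene cells alone.

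The kinases that inactivate E1 differed from each other. Pdk1 had a signal of 318 and 306 in type A, 243 and 132 in type B, 59.5 and 59.4 in pachytene cells and 23.6 and 18.2 in spermatids. Its arrays read lower at each later stage without overlap, and it fell by 2.12 ± 0.27 from type A to pachytene (adjusted p = 3.16e-04). Pdk2 ran the other way, with 117 and 102 in type A, 133 and 190.4 in type B, 539 and 499.6 in pachytene cells and 793 and 765 in spermatids. Its arrays did not overlap between any 2 stages, and it rose by 2.10 ± 0.22 against type A (adjusted p = 1.48e-04).

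Pdk3, the X-linked kinase, was low in pachytene cells and high before and after. Its signal was 623 and 499.6 in type A, 659 and 493 in type B, 120.0 and 125 in pachytene cells and 752 and 732 in spermatids. It fell by 2.05 ± 0.21 against type A (adjusted p = 1.56e-04) and rose by 2.45 ± 0.21 from pachytene cells to spermatids (adjusted p = 1.16e-04). Both spermatid arrays lay above all spermatogonial arrays. Pdk4 was weak throughout, at 4.0 to 48.7, and passed in no comparison. Its change against type B was -0.93 ± 0.37 (adjusted p = 0.0606), and -1.32 with pachytene replicate 2 left out. Pdk4 passed the filter only through type B, at 43.8 and 48.7 against array medians of 41.5 and 45.2. On all other arrays it read below the median, so the filter itself favours a fall from type B.

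The phosphatase Pdp1, which reactivates E1, had the same course as Pdk3 on its brightest probe set. The signal was 387 and 442 in type A, 369 and 333 in type B, 94.8 and 86.2 in pachytene cells and 458 and 373 in spermatids. It fell by 2.01 ± 0.20 against type A (adjusted p = 1.31e-04) and rose by 2.01 ± 0.20 in spermatids (adjusted p = 1.94e-04). The second Pdp1 probe set did not return: it read 115 to 169 in spermatogonia, 33.5 and 35.2 in pachytene cells and 23.2 and 21.3 in spermatids, with a change of -0.40 ± 0.22 in spermatids (adjusted p = 0.218 in the fit of all probe sets). Pdp2, the other phosphatase, was lower in pachytene cells by 0.78 ± 0.19 log2 (adjusted p = 0.00764), a call lost without pachytene replicate 2 (adjusted p = 0.0688), after quantile normalization (0.37 lower, adjusted p = 0.141) and with centring on the 75th percentile (0.44 lower, adjusted p = 0.0815). The ratio of Pdp2 to Pdp1 changed over the stages, with a permutation p = 0.0167 adjusted over the 7 pairs. From pachytene cells to spermatids it shifted by -2.00 with the brighter Pdp1 probe set and by 0.40 with the other.

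In the first steps of the cycle, from citrate to oxoglutarate, 1 of 7 enzymes rose against type A, 4 fell and 2 did not pass. Of all genes, 27.2% rose and 35.6% fell. Citrate synthase, Cs, which makes citrate from acetyl-CoA, changed by -0.44 ± 0.26 and did not pass (adjusted p = 0.175), although it passed after quantile normalization (-0.81, adjusted p = 0.0201). Aco1, the cytosolic aconitase that also acts as an iron-regulatory RNA-binding protein, had a signal of 705 and 1063 in type A, 1007.5 and 823 in type B, 136 and 166 in pachytene cells and 60.1 and 44.4 in spermatids. The arrays of spermatogonia, pachytene cells and spermatids did not overlap. Aco1 fell by 2.41 ± 0.26 against type A (adjusted p = 1.7e-04). Its probe set can match other transcripts, and a second one, not of that design, also ran downward, from 192 and 193 in type A to 30.2 and 31.9 in spermatids.

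The NADP-dependent isocitrate dehydrogenases both fell. Idh1, the cytosolic form, had 511 and 726 in type A, 656 and 749.5 in type B, 206 and 235 in pachytene cells and 183 and 182 in spermatids, a change of -1.41 ± 0.22 against type A (adjusted p = 8.32e-04). Idh2, the mitochondrial form, had 226 and 411 in type A, 349 and 382 in type B, 18.6 and 36.6 in pachytene cells and 39.1 and 29.5 in spermatids, a change of -2.91 ± 0.32 (adjusted p = 1.74e-04). For both genes the spermatogonial arrays lay above all later ones. The ratio of Idh2 to Idh1 shifted by -1.51 log2, with a permutation p = 0.04 adjusted over the 7 pairs. It turned with the dimmer Idh2 probe set, which fell by 0.84 ± 0.22 (adjusted p = 0.00997 in the fit of all probe sets): the ratio then shifted by 0.57 (adjusted permutation p = 0.0556). With the second Idh1 probe set the shift was -1.57 (adjusted permutation p = 0.0667), so the probe sets do not settle whether Idh2 fell more than Idh1.

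The 3 subunits of the NAD-dependent isocitrate dehydrogenase, the enzyme of the cycle itself, had 3 different courses. Idh3b, a regulatory subunit, rose by 1.25 ± 0.20 against type A (adjusted p = 0.00102), from 322 and 333 in type A and 340.3 and 465 in type B to 779.6 and 817 in pachytene cells and 706 and 705 in spermatids. Idh3g, the other regulatory subunit and X-linked, had 451 and 588 in type A, 606 and 478 in type B, 60.6 and 84.1 in pachytene cells and 111 and 141 in spermatids. Idh3g fell by 2.60 ± 0.25 (adjusted p = 1.2e-04), and its change of 0.69 ± 0.25 in spermatids did not pass (adjusted p = 0.0629). Its other probe set rose there by 0.67 ± 0.20 (adjusted p = 0.037 in the fit of all probe sets). Idh3a, the catalytic subunit, changed by -0.26 ± 0.21 against type A (adjusted p = 0.297). Probe sets of Idh3a disagreed. A dimmer one, of the design that can match other transcripts, rose by 1.01 ± 0.24 against type A (adjusted p = 0.00641 in the fit of all probe sets). Others changed by -0.03 ± 0.24 and 0.46 ± 0.22 and did not pass (adjusted p = 0.928 and 0.111 in that fit).

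All 3 X-linked members, Pdha1, Idh3g and Pdk3, fell from type A to pachytene cells. Of 477 X-linked genes tested, 349 fell and 22 rose, so 73.2% fell, against 35.6% of all genes. The median log2 change of X-linked genes was -1.71, against -0.14 for all genes. From pachytene cells to spermatids Pdk3 rose, while Pdha1 and Idh3g each had 1 probe set that rose and 1, the brighter, that did not pass. At that step 147 X-linked genes rose and 37 fell, 30.8% and 7.76%, against 15.9% and 19.0% of all genes.

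From oxoglutarate to oxaloacetate, 4 of 9 enzymes rose against type A and 4 fell, against 27.2% and 35.6% of all genes. Ogdh, the first enzyme of the oxoglutarate dehydrogenase complex, changed by -0.13 ± 0.19 (adjusted p = 0.577). Dlst, the core of the same complex, had 285.5 and 245 in type A, 199.7 and 328 in type B, 946 and 973 in pachytene cells and 377 and 339 in spermatids. Pachytene arrays stood above all others. It rose by 1.80 ± 0.25 (adjusted p = 4.59e-04) and fell by 1.39 ± 0.25 in spermatids (adjusted p = 0.00357). A dimmer Dlst probe set changed by -0.23 ± 0.38 against type A.

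Succinyl-CoA ligase pairs the common alpha subunit Suclg1 with 1 of 2 beta subunits, Sucla2 in the ADP-forming and Suclg2 in the GDP-linked enzyme. Suclg1 had 520.1 and 562 in type A, 550.3 and 818 in type B, 1544 and 1863 in pachytene cells and 1673 and 1718 in spermatids, a rise of 1.62 ± 0.23 (adjusted p = 5.43e-04). Sucla2 had 808.5 and 768 in type A, 848 and 1320.1 in type B, 2909 and 3051 in pachytene cells and 3951 and 3647 in spermatids, and rose by 1.90 ± 0.24 (adjusted p = 2.83e-04). Suclg2 fell by 1.62 ± 0.25 (adjusted p = 7.87e-04), from 479 and 448 in type A and 479.9 and 409.7 in type B to 107 and 181 in pachytene cells and 153 and 174 in spermatids. The later arrays thus lay above all spermatogonial ones for Suclg1 and Sucla2 and below them for Suclg2. The ratio of Sucla2 to Suclg2 shifted by 3.52 log2 from type A to pachytene cells, an 11.5-fold change. Over the 4 stages the permutation test gave p = 0.0476, or 0.0556 adjusted over the 7 pairs (0.0444 with 64 added before the log).

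Fh1, the fumarase that hydrates fumarate to malate, had 519.6 and 574 in type A, 676 and 694 in type B, 88.2 and 109 in pachytene cells and 304 and 333 in spermatids. It fell by 2.30 ± 0.19 against type A (adjusted p = 9.05e-05) and rose by 1.55 ± 0.19 in spermatids (adjusted p = 5.68e-04). The spermatid arrays remained below all spermatogonial arrays.

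Among the malate dehydrogenases, Mdh1 and Mdh2 fell and Mdh1b rose. Mdh2, the mitochondrial enzyme, had 2699 and 2702 in type A, 2823 and 2475 in type B, 448.5 and 514 in pachytene cells and 713 and 533 in spermatids, a fall of 2.45 log2 ± 0.21 (adjusted p = 9.86e-05). Mdh1, the cytosolic enzyme, had 890.4 and 1027.5 in type A, 1396 and 1164 in type B, 245 and 365 in pachytene cells and 190.1 and 148 in spermatids. Mdh1 changed by -1.62 ± 0.25 (adjusted p = 7.31e-04). Its probe set can match other transcripts, and another Mdh1 probe set, not of that design, was also lower. That one read 307 to 417 in spermatogonia, 161 and 34.8 in pachytene cells and 27.1 and 32.0 in spermatids. A dimmer one, also not of that design, changed by -0.26 ± 0.50 against type A (adjusted p = 0.686 in the fit of all probe sets).

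Mdh1b, a relative of Mdh1, had 24.4 and 14.6 in type A, 15.3 and 469 in type B, 1592 and 1966 in pachytene cells and 1260.4 and 1335 in spermatids. The signal in type B replicate 2 lay between the other spermatogonial arrays and the later ones. Mdh1b rose by 5.67 ± 1.01 against type A (adjusted p = 0.00153). Both type A signals lay below the medians of their arrays, 51.9 and 45.3, so the size depends on the value added before the log: it was 6.27 with 4 added and 4.46 with 64. Against type B the rise was 3.86 ± 1.01 (adjusted p = 0.0117). It was 1.88 when type B replicate 1 was left out (adjusted p = 5.61e-04) and 5.83 when replicate 2 was (adjusted p = 1.22e-06), and the call was lost on leaving out pachytene replicate 2 (adjusted p = 0.0565). The ratio of Mdh1b to Mdh1 shifted by 7.29 log2 from type A to pachytene cells, or 7.93 and 5.95 with 4 and 64 added. Over the 4 stages its permutation p was 0.0667, also after adjustment. With other Mdh1 probe sets the shift was 5.92 to 7.62 and the adjusted p 0.0476 to 0.0762. The ratio of Mdh2 to Mdh1 shifted by -0.83 from type A to pachytene cells and by 1.13 from there to spermatids. Over the 4 stages the permutation test gave an adjusted p = 0.0167. This test was lost with 2 dimmer Mdh1 probe sets (adjusted permutation p = 0.0857 and 0.438).

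**Figure D3:**
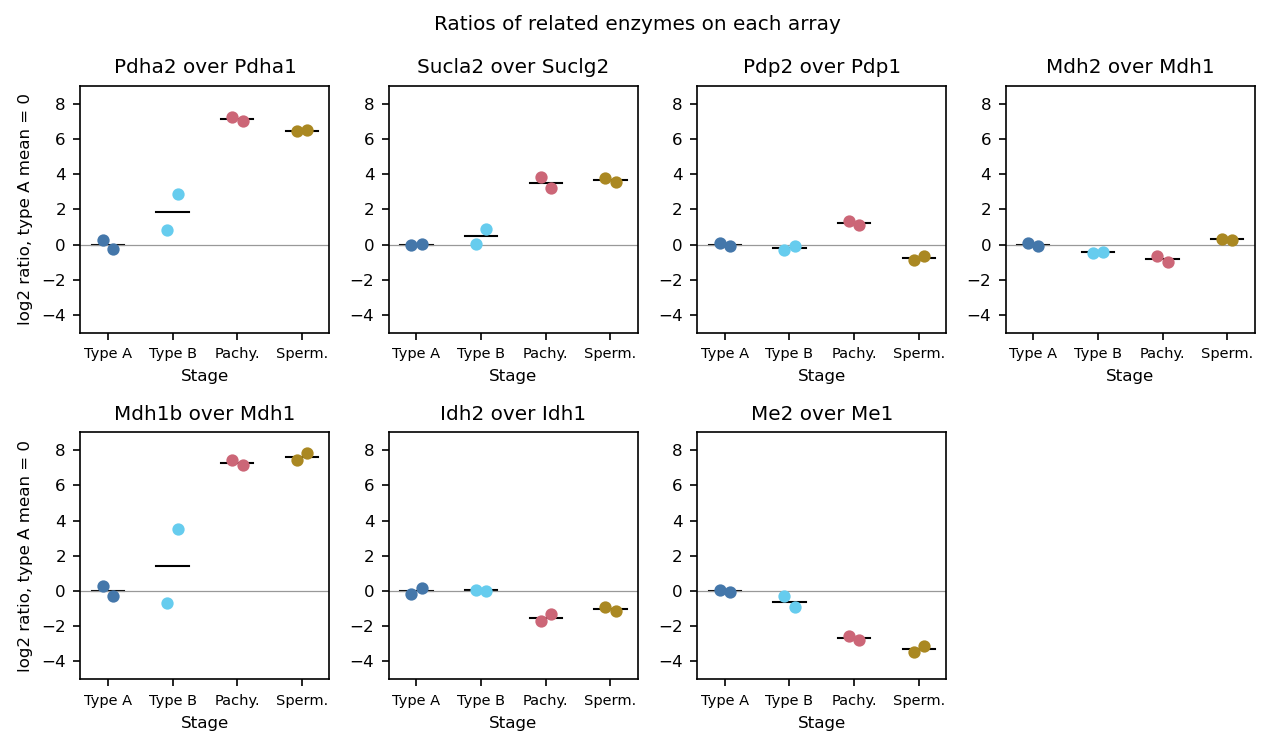
Log2 ratio of 7 pairs of related enzymes on each array, with the type A mean set to 0, by stage. Points are single arrays, 2 per stage, and lines their mean; Pdha2 over Pdha1 and Mdh1b over Mdh1 shift by 7.12 and 7.29 from type A to pachytene cells, and their type B arrays lie apart from each other.

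Malic enzymes, which convert malate to pyruvate, moved in opposite directions. Me1, the cytosolic form, had 651 and 815 in type A, 749 and 926 in type B, 1495.5 and 1758 in pachytene cells and 1915 and 1796 in spermatids, and rose by 1.14 ± 0.21 (adjusted p = 0.00196). Me2, a mitochondrial form, had 364 and 407 in type A, 327 and 249 in type B, 122 and 121 in pachytene cells and 79.9 and 94.7 in spermatids, and changed by -1.54 ± 0.21 (adjusted p = 3.85e-04). On the brightest probe set of each gene, spermatogonial and later arrays did not overlap. The second Me1 probe set read 703 and 587 in type A, 476 and 727.5 in type B and 1106 and 1116.5 in pachytene cells. In spermatids it read 788 and 724, which overlapped the spermatogonial arrays. The ratio of Me2 to Me1 differed over the 4 stages (permutation p = 0.0167 adjusted over the 7 pairs). Its shift from type A to pachytene cells was -2.68 log2. With the other Me1 probe set it was -2.32 and with the third Me2 probe set -2.40, and the test was lost (adjusted permutation p = 0.0762 and 0.0533). Pcx, the pyruvate carboxylase that refills oxaloacetate, changed by -0.49 ± 0.25 against type A (adjusted p = 0.118, or 0.0412 when either type B array was left out) and by -0.86 ± 0.25 against type B (adjusted p = 0.0183). With type B replicate 1 left out the second value was -0.53 (adjusted p = 0.0805). It was -0.52 with centring on the 75th percentile (adjusted p = 0.115), and the call was also lost without either pachytene array (adjusted p = 0.0672 and 0.0848).

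Type B spermatogonia, the stage directly before meiosis in this series, gave these values against pachytene cells. In the pyruvate dehydrogenase complex Pdha1 was lower by 2.44 ± 0.26 log2 (adjusted p = 2.25e-04), and Dlat and Pdhx were higher by 2.03 and 1.06. Pdhb was higher by 0.77 (adjusted p = 0.0108), a call lost without pachytene replicate 2 (adjusted p = 0.0693). Among the regulators, Pdk3 stood at -2.08, Pdk1 at -1.38, Pdp1 at -1.78 and Pdk2 at 1.61, all of which passed, while Pdp2 did not pass at -0.34 (adjusted p = 0.16). In the cycle, Idh2, Idh3g, Fh1, Aco1 and Mdh2 had the lowest values, -3.16, -2.66, -2.62, -2.48 and -2.42, and Dlst, Sucla2 and Suclg1 rose by 1.84, 1.48 and 1.32. The enzymes of the first steps that did not pass were Cs at -0.64 (adjusted p = 0.0638) and Idh3a at -0.42 (adjusted p = 0.115), and both passed as lower after quantile normalization (adjusted p = 0.0147 and 0.0446) and on leaving out type B replicate 2 (0.0143 and 0.0379).

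From pachytene cells to round spermatids fewer members changed: 3 of 31 were higher and 8 lower, against 15.9% and 19.0% of all genes. The genes that rose were Pdk3, Pdp1 and Fh1. All 3 had fallen from type A to pachytene cells. Dlst, Aco1, Pdk1, Idh3a, Pcx, Cs, Mdh1 and Pdhb fell. Of the genes that had risen against type A, Pdhb and Dlst are among those that fell, and all others, Pdha2, Mdh1b, Suclg1, Sucla2, Pdhx, Idh3b, Me1, Dlat, Dld and Pdk2, had changes from -0.71 to 0.57 that did not pass, with the other Dlat probe sets lower as given above. The marker lists moved both ways at this step. Of spermatogonial markers 5 of 10 rose and none fell, with sums of 802 and 914 in pachytene cells and 1447 and 1425 in spermatids, and 4 of 9 macrophage and 3 of 10 stromal markers rose. Sertoli cell markers fell in 8 of 12 cases and Leydig cell markers in 4 of 6. Pdk3, Pdp1 and Fh1, which were high in spermatogonia, moved in the same direction as the spermatogonial markers. Aco1, Pdk1 and Mdh1 had also fallen from type A to pachytene cells and fell again. The other members that had fallen did not pass. The part of other cells was not tested.

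Calls at this step depended on single arrays for 7 of the 8 lower genes. Without pachytene replicate 1, pachytene replicate 2 or spermatid replicate 1, 3 members were lower, and without spermatid replicate 2, 1 was lower, while without either type B array 5 members were higher. Pdhb fell by 0.69 ± 0.20 (adjusted p = 0.0277), Pdk1 by 1.04 ± 0.27 (0.0191) and Pcx by 0.90 ± 0.25 (0.0248), and each lost its call when any 1 of the pachytene or spermatid arrays was left out (adjusted p = 0.0834 to 0.146, 0.0617 to 0.118 and 0.06 to 0.151). Cs fell by 0.82 ± 0.26 (0.0406) and lost its call without any 1 of the type A, pachytene or spermatid arrays (0.0515 to 0.238). Mdh1 fell by 0.78 ± 0.25 (0.0418) and lost it without either type A array (0.0581), pachytene replicate 2 (a fall of 0.51, adjusted p = 0.26) or either spermatid array (0.0736 and 0.224). Idh3a fell by 0.92 ± 0.21 (0.0101) and lost it without pachytene replicate 1 (0.0721) or spermatid replicate 2 (0.0725), and Aco1, which fell by 1.30 ± 0.26 (0.00589), without spermatid replicate 2 (0.0546). In the other direction, Dlat passed as lower without either type A array (0.0298), and Ogdh as lower and Idh3g and Pdk2 as higher without either type B array (0.0398, 0.0389 and 0.0302). The calls of Pdk3, Pdp1, Fh1 and Dlst held in every setting tried, each of which read them on the brightest probe set. In the fit of all probe sets, the other Pdp1 probe set changed by -0.40 ± 0.22 (adjusted p = 0.218). Dimmer Dlst probe sets changed by -0.64 ± 0.38 and -0.24 ± 0.22 there (adjusted p = 0.249 and 0.463).

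**Figure D4:**
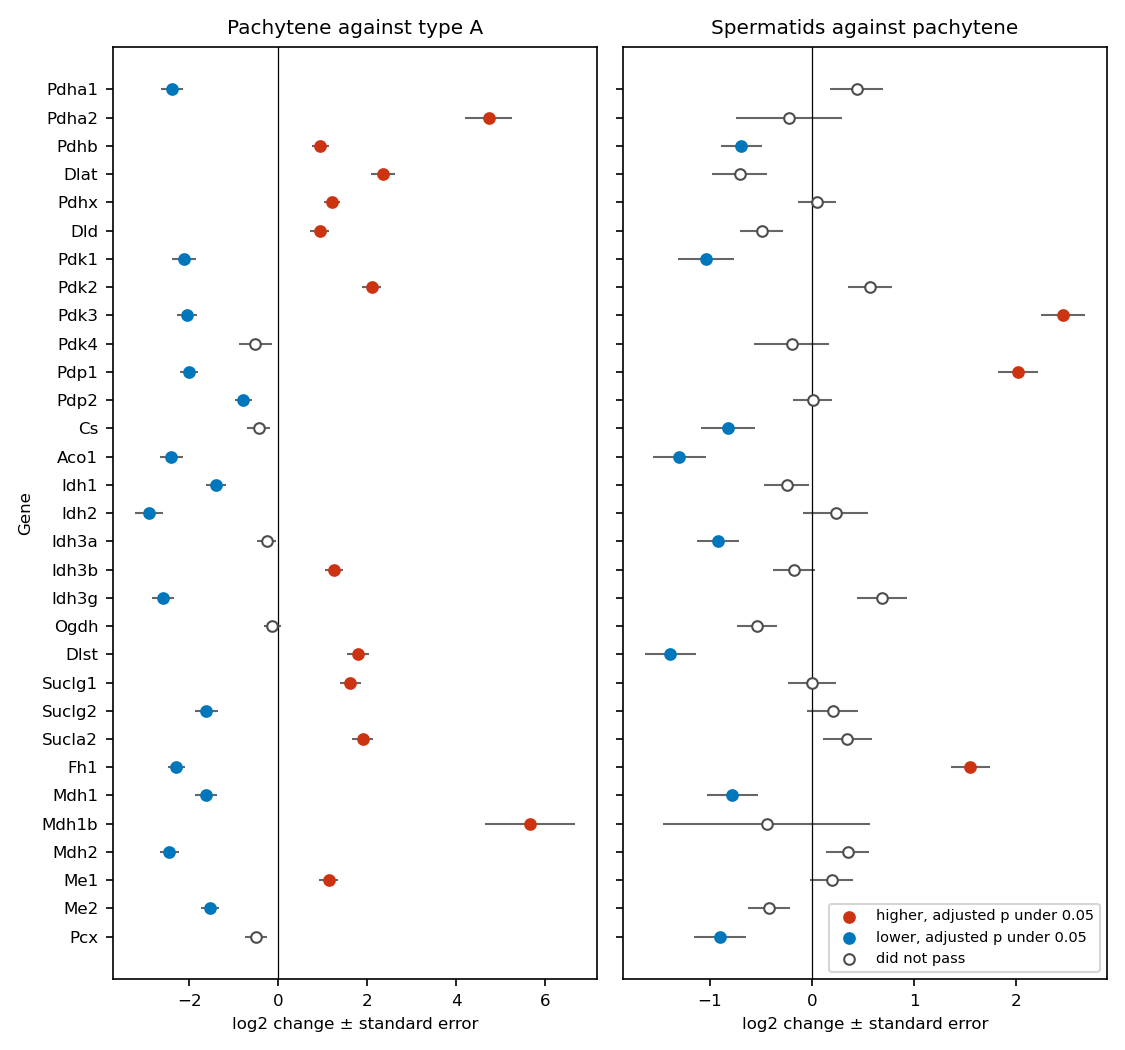
Log2 change (points) with its standard error (bars) for each of the 31 genes, from type A spermatogonia to pachytene spermatocytes and from there to round spermatids. Filled points passed at an adjusted p under 0.05, red higher and blue lower; 12 members are higher and 14 lower at the first step, 3 and 8 at the second.

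No member passed between the spermatogonial groups, nor did any of the 14155 genes, 0% in either direction, with limma's smallest adjusted p at 0.347. At an unadjusted p under 0.05, 1 member was higher and 1 lower, and 789 and 594 genes. Without type B replicate 1, Pdha2 and Mdh1b were higher in the remaining type B array (2.86 and 3.79 log2, adjusted p = 9.15e-05 and 4e-05) and Pdk1 lower (-1.15, adjusted p = 0.0124), with 1158 genes higher and 198 lower in all. That array is the one with raised pachytene and spermatid markers.

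Genes next to the cycle were followed as a list of 26 tested genes, of which 11 rose and 10 fell from type A to pachytene cells, 42.3% and 38.5% against 27.2% and 35.6% of all genes, with a median of 0.21 against -0.14. Ldhc, the lactate dehydrogenase of germ cells, rose by 6.97 ± 1.71 (adjusted p = 0.00742), and Slc16a7, a carrier of lactate and pyruvate, by 5.04 ± 0.88 (adjusted p = 0.00134). The lowest were Got1, the cytosolic aspartate aminotransferase, and Acly, which splits citrate in the cytosol, at -2.12 ± 0.21 and -2.11 ± 0.23 (adjusted p = 1.43e-04 and 1.89e-04). Against type B, 8 rose and 12 fell, 30.8% and 46.2% against 25.5% and 32.7%. There Slc16a7 rose by 3.51 ± 0.88 (adjusted p = 0.00939; 1.81 on leaving out type B replicate 1), Ldhc changed by 3.75 ± 1.71 (adjusted p = 0.0919; leaving out type B replicate 2 gave 7.15, adjusted p = 5.99e-07), and the lowest were Glud1, glutamate dehydrogenase, and the lactate carrier Slc16a1 at -2.11 ± 0.25 and -1.92 ± 0.22 (adjusted p = 3.15e-04 and 3.2e-04).

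From pachytene cells to spermatids, 2 of these 26 genes rose and 8 fell, 7.69% and 30.8% against 15.9% and 19.0%. Got1 rose by 1.75 ± 0.21 (adjusted p = 5.39e-04), and Slc16a7 changed by 1.98 ± 0.88 without passing (adjusted p = 0.119), although it passed without either type B array (adjusted p = 1.19e-04). Sdhc, a membrane anchor of succinate dehydrogenase, and Sdhaf1, an assembly factor of that enzyme, fell by 1.67 ± 0.21 and 1.28 ± 0.25 (adjusted p = 6.52e-04 and 0.00493). Lipoate, the cofactor of Dlat and Dlst, is made by the enzymes Lias, Lipt1 and Lipt2. From type A to pachytene cells 2 of these rose and 1 fell, against 27.2% and 35.6% of all genes.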

How the data were processed

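The authors' deposited values are linear intensities, 1 for each probe set of each array. Per the submitters' processing notes they come from MAS5; the sources used here give no version of it and no detection calls. The values were already scaled: after trimming 2% of probe sets at each end, every array had a mean of 125, with medians of 33.7 to 51.9. A gain or loss of RNA per cell as a whole therefore cannot be seen. Of 45101 probe sets, 64 were controls, 34945 listed 1 gene, 932 several and 9160 none in the platform annotation, and their Entrez identifiers gave current names in a GRCm38.p6 table (34741 matched). A gene was tested when its probe set with the highest mean lay above the array median on at least 2 of 8 arrays. The 4 control probe sets of Pcx counted among the members' probe sets and stayed out of the fit. The tests between groups were two-sided, in limma 3.58.1 (R 4.3.3) with 1 mean per group, leaving 4 residual degrees of freedom with 4.01 prior ones. The number of arrays limits the precision, and the spread behind each p-value is that between preparations, taken over all groups. Ratios of related enzymes were compared by an exact permutation test of F, one-sided. Values on every array are given for Pdha1, Pdha2 and each member that passed with a log2 change of at least 1 from type A to pachytene or from there to spermatids; of the neighbouring genes, the 2 highest and 2 lowest changes of each comparison with calls are named. The members and lists were chosen with earlier results of these data known. The alternatives were pseudocounts of 4 and 64, no filter, quantile normalization, centring on the 75th percentile, the replicate number as a block, an intensity trend, all probe sets, and each array left out. For pairs other than Pdha2 and Pdha1, the pseudocounts and other probe sets were added after the data were seen.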

Additional observations from a re-analysis of the deposited data

How the results depend on the processing

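Each of 124 changes (31 members in 4 comparisons) was recomputed in 16 other settings, always on the gene's brightest probe set. None that passed turned its direction, but other probe sets of a gene could neither turn nor lose a call in these counts. Of the 63 calls, 53 to 63 were kept per setting. From type A to pachytene, 25 of 26 calls held in every setting, all but Pdp2. Against type B 22 of 26 held, all but Pdhb (adjusted p = 0.0693 without pachytene replicate 2), Dld, Mdh1b and Pcx. From pachytene cells to spermatids 4 of 11 held, and members lower went from 8 to 5 both after quantile normalization and with centring on the 75th percentile. With every probe set fitted on its own, counts are of probe sets, of which 59 belonged to members. Against type A, 5807 were higher and 8796 lower, with 18 and 29 of members. Against type B the counts were 5433 and 7718, with 18 and 29 of members. In spermatids 3109 were higher and 4406 lower, with 5 and 14 of members. Shares over all probe sets were not computed, so these counts cannot set the members apart from other probe sets. Over the left-out arrays, type B against type A gave 0 to 1158 genes higher and 0 to 198 lower, with 0 to 2 members higher and 0 to 1 lower. Spermatids against pachytene gave 1357 to 3337 genes lower, 3 to 5 members higher and 1 to 9 lower. A left-out array leaves its group with 1 array, assumed to vary like the others. The ratio of Pdha2 to Pdha1 shifted by 5.94 to 7.55 log2 from type A to pachytene cells over the pseudocounts. Of the other pairs, that of Idh2 to Idh1 turned, from -1.51 to 0.57, with another Idh2 probe set; the cause was not tested. Where a member had several probe sets past the filter (18 members), all had 1 sign for 16 members against type A, 17 against type B and 14 in spermatids. As for pairing, replicate numbers are shared by the groups, but each array came from a separate preparation, and deviations of same-numbered arrays correlated at -0.175 to 0.169. With the replicate block, 12 members were higher and 14 lower against type A (3857 and 5062 of 14155 genes). Against type B the counts were 11 and 14 (3571 and 4628 genes), and in spermatids 3 and 7 (2242 and 2663 genes). Dld (adjusted p = 0.0546 against type B) and Mdh1 (0.0594 in spermatids) lost their calls.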
